A study of Saccharomyces cerevisiae with 4 samples.

Results

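The whole-cell footprints of a yeast culture given cycloheximide were set against those of a culture without the drug, gene by gene. The genes compared were those of the nuclear genome with at least 100 reads over both input libraries, and 5380 of the 6692 genes in the deposited table met this rule. Of the rest, 1284 were nuclear genes under that minimum, 412 of them with 0 reads in both libraries, and 28 were encoded by the mitochondrial genome. Each input library was scaled to its reads in nuclear genes, and the log2 ratio of the library with the drug to the library without it was centred on the median gene.

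The input with cycloheximide came from cells that received 100 µg/ml of the drug for 2 min and then 10 nM biotin for 2 min. The input without cycloheximide came from cells that received the biotin alone. Both cultures were of 1 budding yeast strain (Saccharomyces cerevisiae, S288C) grown in SD medium with 0.125 ng/ml biotin. Its genotype carried the outer membrane protein Om45 fused to mVenus and the biotin ligase BirA (om45::OM45-mVenus-BirA::HIS5), tagged Rpl16 from both of its genes (rpl16a::RPL16a-HA-TEV-AVI and rpl16b::RPL16b-HA-TEV-AVI), a further BirA gene driven by the PGK1 promoter (leu2::pPGK1-BirA::LEU2), and ura3Δ0, met15Δ0 and his3Δ1. Cells were collected on filters and frozen, and fragments protected from RNase I were taken from monosomes on sucrose gradients. The inputs are all such ribosomes, before the streptavidin step that the study used to isolate ribosomes near mitochondria.

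Each group held 1 library, so no difference below has a replicate check and none has a p-value. The effect of the drug, the state of each culture and the preparation of each library cannot be told apart. Bracketed values are exact 95% intervals on the pair of counts and cover counting error only, because PCR copies of a fragment cannot be recognised without molecular identifiers. A footprint count reflects how much message a cell holds as well as how many ribosomes sit on each message, and these parts cannot be told apart here.

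Ribosome profiling sequences the short stretches of messenger RNA that ribosomes shield from nuclease. Cycloheximide binds the E site of the large ribosomal subunit, beside the protein encoded by RPL28, and blocks the step by which the ribosome moves along the message. It is commonly added before harvest to hold ribosomes in place. It also stops the renewal of short-lived proteins. Cells answer shortage of amino acids through Gcn4, a transcription factor whose message carries upstream reading frames that keep its translation low in fed cells. Zinc shortage acts through the activator Zap1, which raises zinc transporters and a set of zinc-sparing proteins.

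The input with cycloheximide held 22527980 reads in nuclear genes and the input without it 18172466. Levels are given below in RPM, reads per 1000000 nuclear-gene reads. The reads were spread over more genes in the library with the drug. There 319 genes held 50% of nuclear-gene reads, against 163 genes without the drug. The 20 most read genes held 15.7% with cycloheximide and 24.0% without, and the 100 most read held 31.0% with it and 42.6% without. A gene in the table had a median of 1113 reads with cycloheximide and 501 without. Totals worked back from the deposited RPKM were larger than the summed gene counts by 13.3% of the total with cycloheximide and 1.46% without, so a larger part of the library with the drug lay outside the counted genes. The part of this in the gene ratios was not tested.

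The most read genes took less of the library with the drug, and the median gene stood 0.74 higher there on library totals (log2), which is 1.67-fold. The log2 ratios below are relative to that median gene unless library totals are named. On this scale 568 of 5380 genes (10.6%) stood at least 2-fold higher with cycloheximide and 560 genes (10.4%) stood at least 2-fold lower, so 50.4% of the genes past 2-fold were on the higher side. On library totals 1875 genes (34.9%) passed 2-fold on the higher side and 115 (2.14%) on the lower side, and the higher side held 94.2%. These shares over all genes, each on its own scale, are the background for the list counts below. At 4-fold the counts relative to the median gene were 178 higher and 58 lower. The middle 50% of genes lay between -0.50 and 0.48, and the median interval reached 0.13 to either side. For 411 of the higher genes and 491 of the lower ones the whole interval lay past 2-fold. Genes at the edge of the read minimum were FKS3, with 87 reads with and 13 without the drug and a log2 ratio of 1.65 just inside it, and DCI1, with 88 reads with and 11 without and 1.90 just outside.

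**Figure D1:**
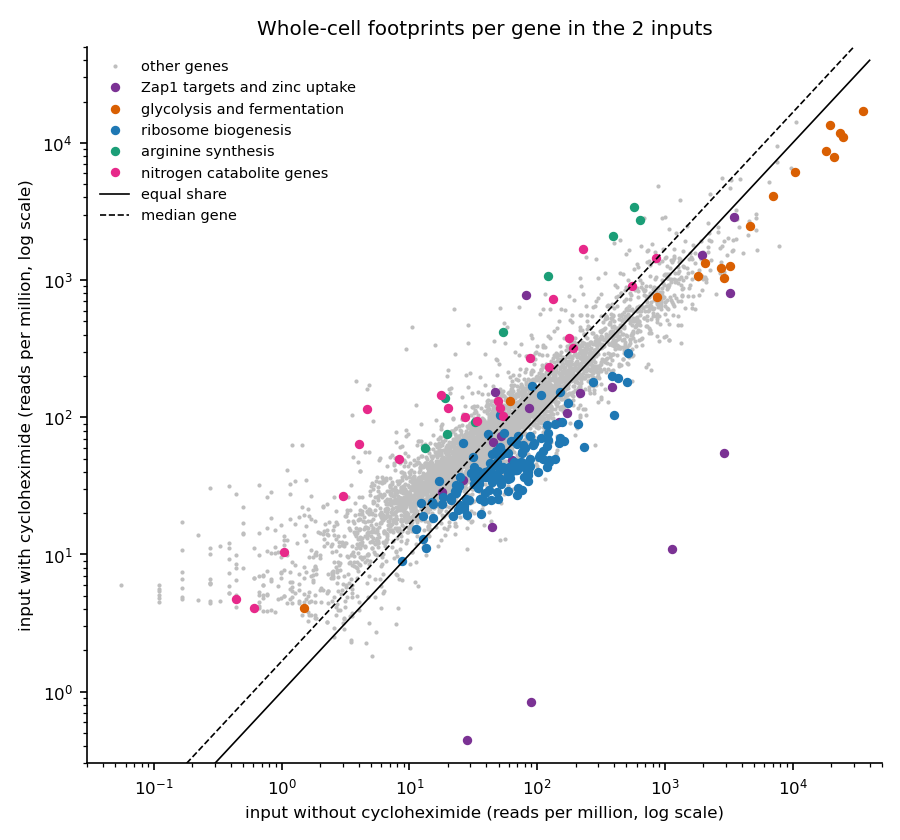
RPM (reads per 1000000 nuclear-gene reads) of each measured gene with reads in both inputs, in the input with cycloheximide (vertical, log scale) against the input without it (horizontal, log scale). The dashed line marks the median gene, 1.67-fold above the solid line of equal share. The main glycolytic genes lie below both lines at the upper right, and 4 zinc-responsive genes lie far below.

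The ratio followed abundance and, less steeply, length. In 10 bins of 538 genes by mean RPM, the bin median was 0.84 in the least read bin, where 43.9% of genes passed 2-fold on the higher side and 3.16% on the lower side. It was 0.06 in bin 5. In the most read bin the median was -0.87, with 4.83% of genes past 2-fold on the higher side and 40.9% on the lower side, and that bin held 59.5% of reads with cycloheximide and 71.6% without. On library totals the most read bin stood at -0.14 and the least read at 1.58. The abundance of a gene is the mean over the same libraries, so the binned value and the ratio share their reads.

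By length, the shortest bin (25 to 143 amino acids) had a median of 0.30 and the longest bin (946 to 4910 amino acids) one of -0.39. Between them the bins from 143 to 709 amino acids had medians from -0.01 to 0.12. Genes were also split into 3 classes by abundance and each class into 5 by length. In the least read class the shortest genes stood at 0.78 and the longest at 0.25. In the middle class these were 0.19 and -0.18, and in the most read class -0.40 and -0.63. The shortest genes thus stood above the longest in each class.

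**Figure D2:**
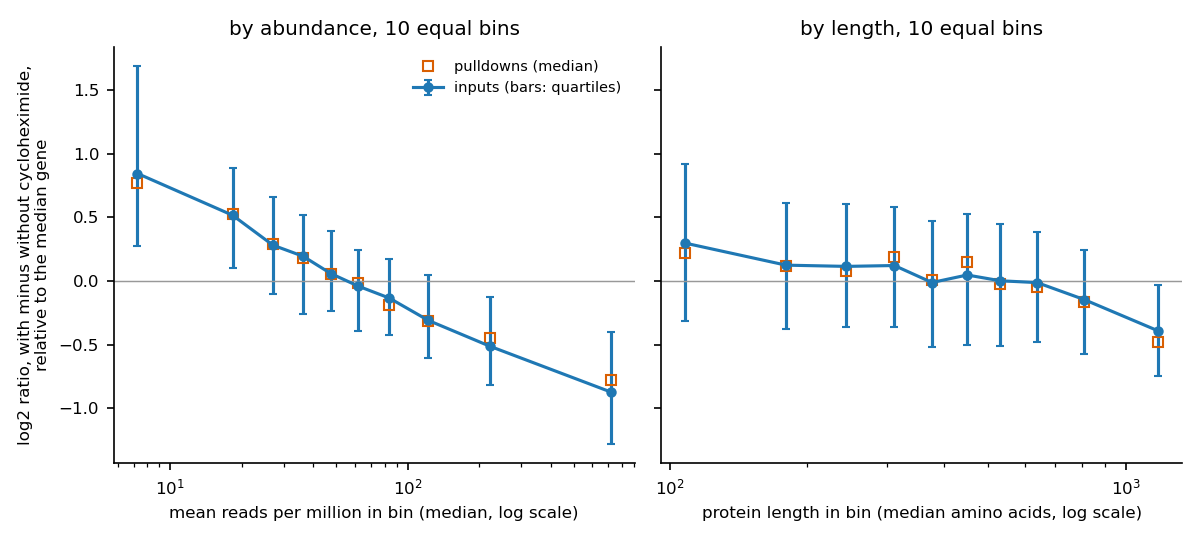
Median log2 ratio with minus without cycloheximide, relative to the median gene, in 10 bins by abundance (left) and 10 by protein length (right), each on a log axis. Bars span the quartiles of the inputs and open squares are the medians of the pulldown pair. The inputs run from 0.84 in the least read bin to -0.87 in the most read bin.

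The largest differences in the lower direction were in genes that Zap1 activates when zinc is scarce. VEL1 had 0.843 RPM with cycloheximide and 89.7 without, a log2 ratio of -7.43 (-8.20 to -6.82) on 19 and 1630 reads. ADH4, an alcohol dehydrogenase, had 10.9 RPM with the drug and 1126 without (-7.43, -7.62 to -7.25). The library with the drug was the low one for both genes. ZPS1, a surface protein related to metalloproteases, had 54.9 RPM with the drug and 2906 without (-6.46). YOR387C, a gene closely related to VEL1, had 0.444 RPM with the drug and 28.1 without (-6.65). The sources used here do not say how reads common to YOR387C and VEL1 were counted. Without cycloheximide ZPS1 held 52810 reads and ADH4 20468, so neither gene was sparsely read in that culture.

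Within the rest of the Zap1 list the differences were smaller, and some members were near the median gene or above it. ZRT1, the high-affinity zinc transporter of the plasma membrane, had 804 RPM with the drug and 3232 without (-2.74). FET4, a low-affinity iron and zinc transporter, stood at -2.21, ZRT3, which releases zinc from the vacuole, at -1.93, ZAP1 itself at -1.41 and ZRC1, which loads zinc into the vacuole, at -1.26. Of the 20 measured genes 13 were at least 2-fold lower and 1 at least 2-fold higher, with a median of -1.19, against 10.4% and 10.6% of all genes. On library totals 7 were past 2-fold on the lower side and 2 on the higher side (median -0.45). The 1 higher relative to the median gene was ICY2, at 781 RPM with the drug and 81.4 without (2.53). ZRT2, the low-affinity zinc transporter, stood at 0.97. Among 8 further zinc transporters and zinc-dependent alcohol dehydrogenases, which include ADH1 and ADH3, the genes that Zap1 represses, none was past 2-fold, and ADH1 stood at -0.41 and ADH3 at 0.07. The list median stood at -0.30, and it was above 0 on library totals.

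ADH4 and VEL1 are near neighbours. In the reference gene table, VEL1 lies on chromosome VII from 11110 to 11730, ADH4 from 15159 to 16307 and ZRT1 from 20978 to 22108. MNT2, a mannosyltransferase gene between these, had 28.8 RPM with the drug and 18.1 without, a ratio of -0.07. ZPS1 (34658 to 35407) and YOR387C (1069621 to 1070241) lie at the opposite ends of chromosome XV. In the pulldown pair VEL1, YOR387C, ZPS1 and ZRT1 stood at -7.83, -7.09, -6.97 and -3.02, and ADH4 at -3.56.

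**Figure D3:**
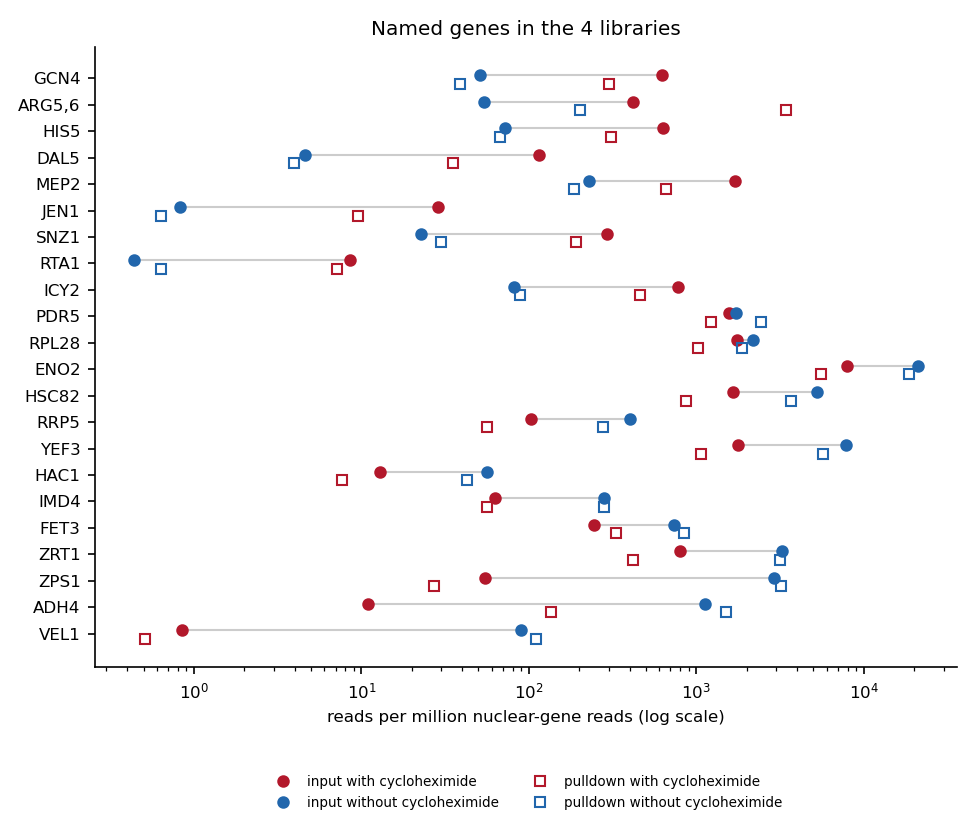
Reads per 1000000 nuclear-gene reads, on a log scale, of 22 genes in the input with cycloheximide and the input without it (filled circles) and in the matching pulldowns (open squares), with red for the drug and blue for its absence. GCN4 has 623 RPM in the input with cycloheximide and 50.8 without, and ZPS1 has 54.9 with it and 2906 without.

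Footprints on GCN4 were among the higher ones. GCN4 had 623 RPM with cycloheximide and 50.8 without, a log2 ratio of 2.88 (2.78 to 2.98) on 14041 and 924 reads. On library totals the difference was larger still by the 0.74 of the median gene. The table gives reads per coding frame, so reads on the upstream frames of the GCN4 leader were not analysed here.

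Enzymes of arginine synthesis formed the list with the highest median, 1.68, with 8 of 9 genes at least 2-fold higher and none lower. ARG7, which recycles the acetyl group in ornithine synthesis, had 1064 RPM with the drug and 122 without (2.38). ARG5,6, a precursor of 2 mitochondrial enzymes of ornithine synthesis, had 420 with it and 53.8 without (2.23), and ARG3, ornithine carbamoyltransferase, 139 with it and 19.1 without (2.12). The last steps, ARG1 and ARG4, stood at 1.68 and 1.82. CPA1, which acts in making carbamoyl phosphate for arginine, stood at 0.76. The list took 1.01% of nuclear-gene reads with cycloheximide and 0.188% without.

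Histidine synthesis had 4 of 7 genes at least 2-fold higher and none lower (median 1.44). HIS5, histidinol phosphate aminotransferase, had 634 RPM with the drug and 72.1 without (2.40), HIS4, which carries 3 activities of the pathway, 1478 with it and 241 without (1.88), and HIS1, the enzyme of the first step, 1039 with it and 217 without (1.52). HIS6 was the lowest at -0.30. The labels name HIS5 as the marker beside the Om45 fusion, and whether marker reads enter the HIS5 count is not known here. HIS3 stood at 1.44, and its reads come from a gene of which the strain's allele lacks a part.

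Other amino acid routes were mixed, and over all genes 10.6% were at least 2-fold higher and 10.4% lower. In lysine synthesis 3 of 9 genes were at least 2-fold higher, LYS20, a homocitrate synthase, at 1.75, LYS1, saccharopine dehydrogenase, at 1.68 and LYS5 at 1.25, whereas LYS9 stood at -0.97 (list median 0.64). In the aromatic pathway ARO3, an entry enzyme, stood at 1.30 and TRP4 at 1.31, and the other 12 of 14 genes were within 2-fold (median 0.01). Of 9 genes for serine, threonine and homoserine, HOM3, the aspartate kinase, stood at 1.26 and SER3, of serine synthesis, at -2.14. For leucine, isoleucine and valine the 10 measured genes ran from LEU1 at -1.25 to LEU4 at 0.92. The medians of these last 2 lists, -0.65 and -0.14, were above 0 on library totals.

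Genes for poor nitrogen sources formed a further higher group. DAL5, the allantoate permease, had 115 RPM with cycloheximide and 4.62 without (3.89, 3.59 to 4.23), DAL7, a malate synthase of allantoin use, had 63.6 with it and 4.02 without (3.24), and MEP2, a high-affinity ammonium permease, had 1691 with it and 229 without (2.15). The transcription factors DAL80, UGA3 and GLN3 stood at 2.55, 2.30 and 1.15. Of 22 genes 12 were at least 2-fold higher and none lower, with a median of 1.43, against 10.6% and 10.4% of all genes. Of the 22, 6 had fewer than 100 reads without the drug. DAL5, DAL7 and DAL80 had 84, 73 and 19 such reads. Genes this sparsely read without the drug can reach the read minimum through the library with it. CAR1 and CAR2, which break down arginine, stood at 0.01 and -0.03, and PUT2 of proline breakdown at -0.01. DUR3, the urea transporter, stood at 1.70, and DUR1,2, the biotin-carrying urea amidolyase, at 1.49.

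Among amino acid permeases, UGA4, which imports 4-aminobutyrate, stood at 2.66, AGP3 at 1.23 and CAN1, the arginine permease, at 1.06, and TAT1 was at least 2-fold lower at -1.64. GAP1, the general permease, had 2875 RPM with the drug and 996 without (0.79). Of the 18 permeases 14, GAP1 among them, lay within 2-fold. The share over all genes was 10.6% higher and 10.4% lower.

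Many genes for carbon sources other than glucose were higher too, from low levels. JEN1, the lactate and pyruvate permease, had 28.8 RPM with cycloheximide and 0.825 without (4.34), on 15 reads without the drug. SIP4, an activator of gluconeogenic genes, stood at 2.96, ADY2, an acetate transporter, at 2.94, ACS1, acetyl-CoA synthetase, at 2.77, MLS1 and ICL1 of the glyoxylate cycle at 2.46 and 1.30, and PCK1, the first enzyme of gluconeogenesis, at 1.90. Of 19 measured genes 10 were at least 2-fold higher and 1 lower, MDH2, at -1.13 (median 1.30). The genes FBP1, SFC1, MAL32, GAL1, GAL2 and GAL7 of this list had under 100 reads. Of the 19, 9 had fewer than 100 reads without the drug, and 3 of those, IDP2, GAL10 and PCK1, had 8, 8 and 31. Such genes can reach the read minimum through the library with the drug, which favours higher calls. Of all genes 10.6% were at least 2-fold higher, and of the least read abundance bin 43.9%. Set against genes of like abundance, in 20 bins, the list median was 1.06. The list took 1.30% of nuclear-gene reads with the drug and 1.01% without.

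Of 42 general stress genes, the targets of Msn2 and Msn4 with trehalose and glycogen enzymes, 12 were at least 2-fold higher and none lower (median 0.49). Of all genes 10.6% were higher and 10.4% lower. In this list 6 genes had fewer than 100 reads without the drug. On library totals 24 were higher and none lower. GLG1, which primes glycogen, stood at 1.98, RTN2 at 1.82, DDR2 at 1.72, and CTT1, the cytosolic catalase, at 1.33, with 202 RPM with the drug and 48.1 without. HSP12, HSP30 and GPD1 stood at -0.53, -0.76 and -0.70, and MSN2 and MSN4 at -0.20 and 0.02.

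The glycolytic enzymes, the most heavily translated messages of fermenting yeast, were lower with cycloheximide. The list took 8.96% of nuclear-gene reads with the drug and 17.8% without. PDC1, pyruvate decarboxylase, had 17219 RPM with the drug and 35518 without (-1.78), CDC19, the main pyruvate kinase, 10967 with it and 24599 without (-1.90), and ENO2, an enolase, 7940 with it and 21039 without (-2.14). Of 17 genes 14 were at least 2-fold lower and none higher, with a median of -1.63. On library totals 7 were past 2-fold on the lower side and 2 on the higher side (median -0.90). TDH1 stood at -0.93, and the minor isozymes PYK2 and PDC6 at 0.36 and 0.69. Set against genes of like abundance, in 20 bins, the list median was -0.69. ENO1 and ENO2, TDH1 to TDH3, and other near-identical pairs share sequence, and the counting of reads common to such copies is not known here.

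**Figure D4:**
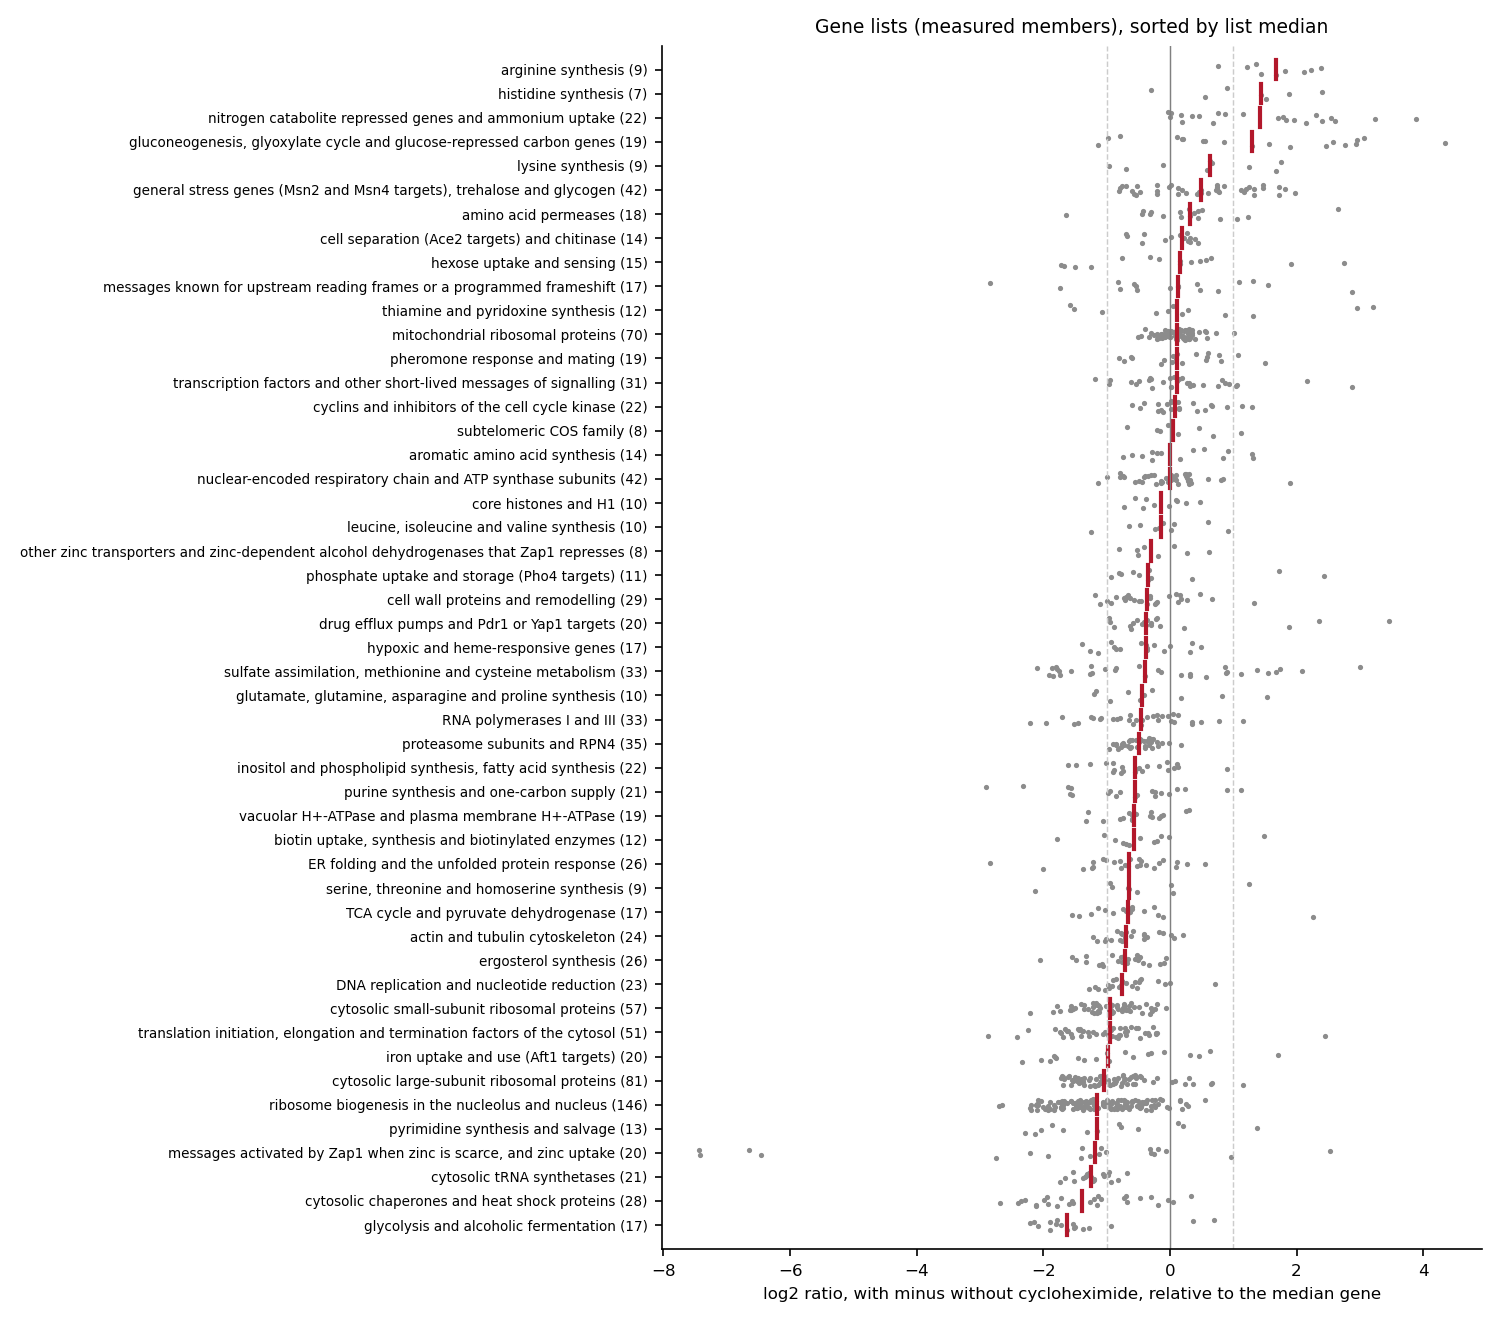
Log2 ratio with minus without cycloheximide, relative to the median gene, for the measured members of each gene list (points, with the number measured in brackets) and the list median (red bar), sorted by median. Dashed lines mark 2-fold. Medians run from -1.63 for glycolysis to 1.68 for arginine synthesis, and 4 genes of the zinc list lie beyond -6.

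Cytosolic chaperones stood low as a list. HSP82, the inducible Hsp90, had 349 RPM with cycloheximide and 1342 without (-2.68), HSC82, its constitutive partner, 1662 with it and 5272 without (-2.40), and YDJ1, an Hsp40, 233 with it and 716 without (-2.36). STI1, which joins Hsp70 to Hsp90, stood at -2.28, the Hsp70s SSA1 and SSA2 at -1.78 and -2.11, SSB1 and SSB2 of the ribosome at -2.11 and -1.93, and the disaggregase HSP104 at -1.26. Of 28 genes 19 were at least 2-fold lower and none higher (median -1.39, and -0.91 against genes of like abundance). On library totals 10 were past 2-fold on the lower side and 1 on the higher side (median -0.66). HSP42 stood at 0.05 and HSF1, their activator, at 0.33.

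In the endoplasmic reticulum list 8 of 26 genes were at least 2-fold lower and none higher, against 10.4% and 10.6% of all genes. HAC1, the activator of the unfolded protein response, had 13.0 RPM with the drug and 55.9 without (-2.84), KAR2, the lumenal Hsp70, had 669 with it and 1618 without (-2.01), and PDI1, disulfide isomerase, stood at -1.38. HAC1 messages are held untranslated until an intron is removed in the cytoplasm, and the counts do not separate spliced from unspliced messages. On library totals 2 genes were past 2-fold on the lower side and 1 on the higher side, and the list median of -0.64 was then above 0, at 0.09. Against genes of like abundance it was -0.41.

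Many genes of the translation machinery stood below the median gene, by counts that rest on the centring. YEF3, the fungal elongation factor 3, had 1773 RPM with cycloheximide and 7799 without (-2.87, -2.89 to -2.86). EFB1, the exchange factor of eEF1A, had 789 with it and 2532 without (-2.42), and PAB1, the poly(A)-binding protein, had 473 with it and 1340 without (-2.24). Of 51 translation factors 24 were at least 2-fold lower and 1, HEF3, at least 2-fold higher (median -0.95). Of 21 cytosolic tRNA synthetases 16 were at least 2-fold lower and none higher, from ALA1 at -1.74 to TYS1 at -0.68 (median -1.25). On library totals 4 of the translation factors and 1 of the synthetases were past 2-fold on the lower side, with medians of -0.22 and -0.51. Against genes of like abundance the medians were -0.57 and -0.37.

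Of the ribosomal protein genes measured, 43 of 81 for the large subunit and 27 of 57 for the small one were at least 2-fold lower, with medians of -1.04 and -0.94. On library totals these counts were 0 and 4, with 5 and 0 genes past 2-fold on the higher side and medians of -0.31 and -0.21. RPS9B, at 617 RPM with the drug and 1717 without, was the lowest of the small subunit (-2.21), and RPL13B, at 766 with it and 1514 without, the lowest of the large subunit (-1.72). RPL41B, which encodes a very short peptide, was the 1 gene at least 2-fold higher (1.15), and RPL41A stood at 0.65. Against genes of like abundance the medians were -0.13 and -0.17, so these lists stood close to other heavily read genes. RPL28, whose protein borders the cycloheximide site, had 1741 RPM with the drug and 2184 without (-1.06). The tagged RPL16A and RPL16B stood at -1.07 and -1.69.

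Ribosome biogenesis stood below genes of like abundance too. Of 146 genes 81 were at least 2-fold lower and none higher, and the median was -1.15 both relative to all genes and relative to genes of like abundance. On library totals 22 were past 2-fold on the lower side and 2 on the higher side, with a median of -0.41. RRP5, which acts on precursors of both subunits, had 103 RPM with cycloheximide and 402 without (-2.70). DBP2, an RNA helicase, had 60.8 with it and 231 without (-2.66), and NOP1, fibrillarin, had 182 with it and 501 without (-2.20). SLX9 was the highest at 0.56. RNA polymerases I and III had 9 of 33 genes at least 2-fold lower and 1, RRN7, at least 2-fold higher, with the large subunits RPA190 and RPA135 at -2.21 and -1.95 and RPO31 at -1.70. On library totals 2 polymerase genes were past 2-fold on the lower side and 5 on the higher side, and their median of -0.46 was then above 0. The deposited table gives locations from tagged proteins. By these, 16 of 39 genes in nucleolus and nucleus and 15 of 39 in the nucleolus were at least 2-fold lower. This compares with 10.4% of all genes, 18 of 273 in the nucleus, 109 of 461 in the cytoplasm and 22 of 160 in the endoplasmic reticulum.

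Nucleotide synthesis was split. URA2, the first enzyme of pyrimidine synthesis, had 367 RPM with the drug and 1074 without (-2.29), URA1 had 390 with it and 1027 without (-2.13), and URA7, CTP synthase, stood at -2.03. Of 13 measured pyrimidine genes 7 were at least 2-fold lower and 1, URA10, at least 2-fold higher (1.37), with a median of -1.15 (4 lower, 1 higher and a median of -0.41 on library totals). In the purine list IMD4, of guanine nucleotide synthesis, had 62.8 RPM with it and 281 without (-2.90), and GUA1 of the same branch stood at -2.32, ADE6 at -1.58 and ADE2 at -0.23. GCV1, of glycine cleavage, stood at 1.13. In all 6 of 21 were at least 2-fold lower and 1 higher, with a median of -0.55. On library totals 2 were lower and 2 higher, and the median was above 0. IMD2 and IMD3, close relatives of IMD4, stood at -1.56 and -1.60.

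Iron and sulfur genes were spread widely. Over all genes 10.6% were at least 2-fold higher and 10.4% lower, and on library totals 34.9% and 2.14%. FET3, the multicopper oxidase of iron uptake, had 245 RPM with cycloheximide and 740 without (-2.33), and its permease partner FTR1 stood at -1.90. The siderophore transporters ARN1, SIT1, ENB1 and ARN2 stood at -2.04, -1.80, -1.45 and -1.17. Of 20 measured Aft1 targets 9 were at least 2-fold lower, and ISU1, a scaffold of iron-sulfur clusters, was at least 2-fold higher at 1.71 (median -0.98). On library totals 6 were lower and 4 higher (median -0.24). In the sulfur list 13 of 33 genes were at least 2-fold lower and 7 at least 2-fold higher, with a median of -0.40. On library totals 7 were lower and 13 higher, the latter near the share of all genes, and the median was above 0. The lower genes included SAM1 and SAM2, the S-adenosylmethionine synthetases, at -2.10 and -1.86, MET6, methionine synthase, at -1.91 and SAH1 at -1.80. The higher ones included JLP1, a sulfonate dioxygenase, with 239 reads with the drug and 14 without, SUL1, a sulfate permease, at 2.09, STR3 at 1.74 and MET28, a regulator, at 1.68.

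Sterol genes stood below the median gene, and respiratory genes near it. ERG13, HMG-CoA synthase, stood at -2.06, and 8 of 26 ergosterol genes were at least 2-fold lower, none higher (median -0.71). On library totals 1 was lower (median 0.02). Against genes of like abundance the ergosterol median was -0.32, and 10.4% of all genes were at least 2-fold lower. In the TCA cycle 5 of 17 genes were at least 2-fold lower, IDH1, a subunit of isocitrate dehydrogenase, most so at -1.55, and CIT3 was higher at 2.25 (median -0.67). On library totals CIT3 alone was past 2-fold (median 0.07). Against genes of like abundance the median of the TCA list was 0.02. Of its 17 genes 1 had fewer than 100 reads without the drug. The respiratory chain and ATP synthase had a median of 0.00, with NDE2 at 1.89 and NDE1 at -1.14 the members past 2-fold among 42. Mitochondrial ribosomal proteins, a list with 70 measured genes, kept between -0.51 and 1.01 with a median of 0.11. Proteasome genes lay within 2-fold in all 35 cases (median -0.49, above 0 on library totals), and so did the 10 histone genes.

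Drug pumps were mostly near or below the median gene. PDR5, the main cycloheximide exporter of yeast, had 1565 RPM with the drug and 1733 without (-0.88), PDR15 stood at -0.64, YOR1 at -0.43 and SNQ2 at -0.30. The regulators PDR1 and PDR3 stood at -0.62 and 0.22. Past 2-fold were RTA1 at 3.46, on 193 reads with the drug and 8 without, ATR1 at 2.35 and PDR10 at 1.89. The list median of 20 genes was -0.37, and it was above 0 on library totals and against genes of like abundance (0.06). The share over all genes was 10.6% higher and 10.4% lower.

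In the vitamin lists, SNZ1 and SNO1, neighbours that act in pyridoxine synthesis, had 291 and 26.6 RPM with cycloheximide and 22.6 and 1.71 without (2.95 and 3.20). THI7, the thiamine transporter, and PHO3, the phosphatase that serves it, stood at -1.07 and -1.52. VHT1, the biotin transporter, stood at -0.21 and BPL1, the yeast biotin ligase, at -0.86. ACC1, acetyl-CoA carboxylase, had 1620 RPM with the drug and 3351 without (-1.78).

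Most of the genes with the highest ratios were sparsely read without the drug, and some were short. Of the 25 highest, 9 encode at most 100 amino acids, 7 are absent from the reference gene table, none is on a gene list (the lists were drawn up with earlier results of these data known), and 17 had fewer than 10 reads without the drug. YER175W-A, a frame of 54 amino acids on chromosome V (540650 to 540814), had 863 reads with cycloheximide and 0 without, a ratio of at least 7.12 on the log2 scale against 3 reads. YER138W-A had 104 with it and 0 without, a ratio of at least 4.07. YGR045C had 683 with it and 5 without (5.91, 4.82 to 7.68), and YKR073C had 389 with it and 3 without (5.75, 4.41 to 8.26). By contrast the 25 lowest had a median of 524 amino acids, 21 were on a list, and none had fewer than 10 reads without the drug. Of all 5380 measured genes, 212 encode at most 100 amino acids, 82 are absent from the reference table and 1244 are on a list. Among them 51 had fewer than 10 reads without the drug. Over all measured genes, 186 of at most 100 amino acids in the reference table had a median of 0.45, with 27.4% at least 2-fold higher and 2.15% lower. The 82 measured frames absent from it had a median of 1.23, with 51.2% at least 2-fold higher and 18.3% lower, on a median of 6.19 RPM. That level lies in the least read abundance bin (2.29 to 13.1 RPM), where 43.9% of genes were at least 2-fold higher and 3.16% lower.

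With a minimum of 1000 reads over both inputs, chosen after the values were seen, the highest genes were mixed, with metabolic genes among them. YKL044W (MMO1 in the reference table) had 1423 reads with cycloheximide and 22 without (4.94). YNL179C, absent from that table, had 4137 with it and 69 without (4.85), and YJR120W (DMO1) stood at 4.39. These, with YGL117W, NIT1 and RTC2, are also among the 25 highest above. YLR152C stood at 4.15. YGL117W (ARO5 in the reference table) had 10283 reads with cycloheximide and 189 without (4.72, 4.51 to 4.94). NIT1, of the nitrilase family, had 1423 with it and 26 without (4.70), RTC2, a vacuolar transporter of basic amino acids, had 3847 with it and 87 without (4.41), and CHA1, the catabolic serine and threonine deaminase, had 13960 with it and 409 without (4.05, 3.91 to 4.19). YAT2, a carnitine acetyltransferase, stood at 3.69, TMT1, trans-aconitate methyltransferase, at 3.28, ADH5 at 2.86, STR2, cystathionine gamma-synthase, at 2.74, PKP2, a kinase of pyruvate dehydrogenase, at 2.70 and SRY1 at 2.62. TMT1 lies at 539464 to 540363 on chromosome V, next to the frame YER175W-A.

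A known regulatory frame was in the same range. YOR302W, a frame of 25 amino acids at 882765 to 882842 on chromosome XV, is the upstream frame of CPA1 whose peptide stalls ribosomes when arginine is plentiful. It had 7136 reads with cycloheximide and 170 without (4.34, 4.13 to 4.57). Per length it stood at 3520 RPKM with the drug and 118 without. CPA1 itself (882899 to 884134) stood at 64.7 RPKM with it and 26.0 without. The frame thus had 54.4 times the RPKM of CPA1 with cycloheximide and 4.55 times without. It was chosen after its values were seen.

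Other messages with upstream frames or a programmed frameshift did not share a direction. Of 17, 4 were at least 2-fold higher, GCN4 at 2.88, CBS1 at 1.55, and the frameshifted EST3 and OAZ1 at 1.31 and 1.09. HAC1 and TIF4631 were at least 2-fold lower, at -2.84 and -1.73. The share over all genes was 10.6% higher and 10.4% lower. YAP1, INO2, HAP4 and SCH9 stood between -0.79 and -0.52, CLN3 at 0.43 and CPA1 at 0.76.

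Pairs kept from the ancient whole-genome duplication showed that close relatives could part widely. Of 503 pairs with both copies measured, 115 differed by at least 2-fold in the ratio, and in 88 of these the less read copy was the higher one. Over all genes the share at least 2-fold higher fell from 43.9% in the least read abundance bin to 4.83% in the most read. The pairs were not matched for abundance. Of genes with a kept copy 10.2% were higher and 11.5% lower, against 10.6% and 10.2% of the others. HEF3 had 275 reads with cycloheximide and 24 without (2.45), while its partner YEF3 stood at -2.87. NQM1 stood at 2.07 and TAL1, transaldolase, at -1.56. HXT5 stood at 1.92 and HXT3 at -1.67, TKL2 at 1.20 and TKL1, transketolase, at least 2-fold lower with 17405 reads with the drug and 33731 without, NDE2 at 1.89 and NDE1 at -1.14, and ADH5 at 2.86 and ADH1 at -0.41. In 9 pairs the copies were past 2-fold in opposite directions, in 25 both were lower and in 13 both were higher.

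Chromosomes differed little in their medians, from -0.19 on VI to 0.07 on IX. On chromosome IX 42 of 191 measured genes (22%) were at least 2-fold higher, the largest share of a chromosome. The next largest was 12.4%, on V, and the share over all genes was 10.6%. DAL1, DAL4 and DAL2, of the allantoin gene cluster on chromosome IX (406260 to 411838), were all higher, at 2.60, 1.96 and 2.40. On chromosome V the neighbours HOM3, PIC2, YER053C-A, GIP2 and HIS1 (256375 to 265785) were all past 2-fold on the higher side. On chromosome IV SUB2, RPS16B, RPL13A and RPP1A (305237 to 310122) were all at least 2-fold lower. These neighbours were picked after their values were seen, and how often neighbours share a direction was not tested.

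The pulldowns give the same ratio in the other pair of libraries. They carry the same treatment labels, and whether they came from the same cultures as the inputs is not stated. Their median gene stood at 0.10 on library totals. Relative to that median gene, 964 of 5395 genes (17.9%) passed 2-fold on the higher side and 542 (10%) on the lower side. Over 5363 genes measured in both pairs, the ratios had a Pearson correlation of 0.80 and a Spearman correlation of 0.81. Over the 4272 that the authors' annotation does not mark as mitochondrial, these were 0.90 and 0.89. This is a description across genes, which are not independent replicates, and both pairs share the treatment and much of the abundance of each gene. Of 559 genes at least 2-fold higher in the inputs with a pulldown value, 424 were also at least 2-fold higher in the pulldowns. Of 560 lower ones, 419 were also lower. GCN4 stood at 2.85 in the pulldowns, ZPS1 at -6.97, CHA1 at 5.81 and YEF3 at -2.52.

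**Figure D5:**
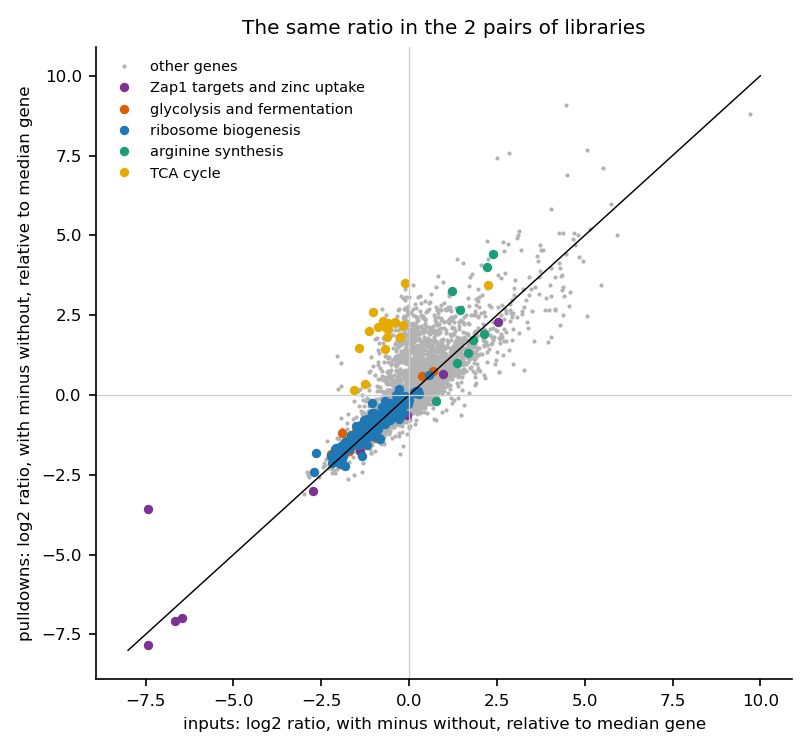
Log2 ratio with minus without cycloheximide, relative to the median gene, in the pulldown pair (vertical) against the input pair (horizontal) for genes measured in both. The line marks equal ratios. Most genes lie near the line, and genes of the TCA cycle lie above it, with a list median of 2.11 in the pulldowns and -0.67 in the inputs.

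The strain labels were read against the inputs. URA3 and MET17 (MET15), deleted per the labels, had 0 reads in both inputs, and so had LEU2, although the labels give LEU2 as the marker beside the PGK1-driven ligase. The mating type genes of MATa cells were read in both cultures, with STE2, the alpha factor receptor, at 12794 reads with cycloheximide and 6827 without. OM45, the fusion partner of the ligase, stood at 0.44.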

How the data were processed

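Footprints of the 2 inputs, with and without cycloheximide, were compared, with 1 library in each group and groups taken from the sample titles. Per the file headers, the deposited counts are the authors' raw reads per gene, and the RPKM values were scaled by the authors to gene length and library size. The authors also added a MitoProt score, a predictor of mitochondrial targeting, which entered no result here, and the length in amino acids, annotation and location of each gene product. The submitters' processing notes name CASAVA and build sacCer3. The aligner, the strand rule and the treatment of reads mapping to several genes are not stated in the sources used. Coordinates come from the reference gene table, in which 6008 of the 6692 identifiers were found. A further 5 per-sample columns, which belong to another fusion, were not used.

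Counts were scaled to nuclear-gene reads, 0.5 reads were added, and log2 ratios with over without cycloheximide were centred on the median gene with at least 100 reads over both libraries. A gene was called higher or lower at 2-fold. Intervals are Clopper-Pearson at the 95% level, and a ratio against 0 reads used 3 reads. With 1 library a side no test was made. The genes, the 50 lists (1314 genes, 1244 measured) and their comparisons were chosen with earlier results of these data known. The genes named are the 25 highest and 25 lowest, all members of lists of up to 25, the 5 highest, 5 lowest and 5 nearest the median in longer lists, the 20 most read in each input, and ADH4, GCN4, OM45, RPL16A, RPL16B, RPL28, PDR5, MET17, URA3, LEU2 and HIS3. Genes outside this rule are the members of the comparisons of gene pairs and neighbours, genes at the read minimum, further list members, the upstream frame of CPA1, and the highest genes with at least 1000 reads, all named after their values were seen. Promoter motifs were not analysed here. The procedure was tested on simulated counts of known fold. The work was done in Python 3.11.15 (pandas 2.3.3, numpy 2.4.6, scipy 1.17.1), with figures from matplotlib 3.10.9 and TMM scaling from edgeR 4.0.16 in R 4.3.3.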

Additional observations from a re-analysis of the deposited data

Results flagged for a closer look

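Genes encoded by the mitochondrial genome, whose ribosomes cycloheximide does not bind, lie outside the comparison. They held 317 reads in the input with cycloheximide and 106 in the input without it, above the 3 reads that a count of 0 allows in each. This is 14.1 reads per 1000000 listed reads with the drug and 5.83 without. COX1, a subunit of cytochrome oxidase, had 47 reads with it and 18 without, ATP6, of the ATP synthase, 40 with it and 13 without, and COX3 had 31 with it and 4 without. The pulldown pair went the other way. There the mitochondrially encoded genes held 8.46 reads per 1000000 listed reads with the drug and 26.2 without, on 317 and 412 reads.

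In 5 genes the ratio was past 2-fold one way in the inputs and past 2-fold the other way in the pulldowns, and that difference was not tested. All are mitochondrial by the authors' annotation, and all were lower with cycloheximide in the inputs and higher in the pulldowns. PIM1, the Lon protease of the matrix, stood at -1.10 in the inputs and 1.18 in the pulldowns, and SSC1, the matrix Hsp70, at -2.06 and 1.22. MDH1, malate dehydrogenase, stood at -1.03 in the inputs and 2.61 in the pulldowns, ACO1, aconitase, at -1.44 and 1.47, and LAT1, of pyruvate dehydrogenase, at -1.14 and 2.01.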

How the results depend on the processing

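The scale decided the balance of higher and lower genes. Centred on the median gene, 568 passed 2-fold on the higher side and 560 on the lower side. On library totals there were 1875 higher and 115 lower, and on totals without the 20 most read genes of either input 1470 and 159, with the median gene at 0.58. With TMM scaling the median gene stood at 0.02, and 582 and 543 genes were past 2-fold. The higher side held 94.2% of called genes on library totals, 90.2% without the 20 most read genes and 51.7% with TMM. At 1.5-fold there were 1122 higher and 1176 lower genes, and at 4-fold 178 and 58. A pseudocount of 1, minimums of 20, 500 or 50 reads in each library, the interval bound, the deposited RPKM, leaving out genes with identical counts or absent from the reference table, and centring within 20 abundance bins (added after the data were seen) gave 393 to 745 higher and 374 to 603 lower. Of 49 list medians 20 changed sign on library totals and 14 within abundance bins. None of those with a size of at least 1 did so within abundance bins or on library totals. No paired analysis was possible because each group held 1 library. Promoter motifs were planned and not analysed here. Depth limits the sparsely read genes, where 51 measured genes had under 10 reads without the drug.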

Other observations

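In the cell wall list, 1 of 29 genes was at least 2-fold higher, PIR3, at 1.33, with 20.3 RPM with cycloheximide and 4.84 without, and 2 were lower. SED1, a major wall protein, had 5583 RPM with the drug and 2781 without (0.27). None of 14 genes of cell separation was past 2-fold. Of 23 genes of DNA replication and nucleotide reduction 4 were at least 2-fold lower, among them the ribonucleotide reductase genes RNR3, RNR2 and RNR1 at -1.27, -1.13 and -1.03, and CDC6, which loads the replicative helicase, stood at 0.71. Their median of -0.76 was -0.02 on library totals. For each list here, the share over all genes was 10.6% higher and 10.4% lower.

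Hexose transporters differed by member. HXT3, HXT1 and HXT2 had 274, 170.5 and 211 RPM with cycloheximide and 523, 288 and 299 without (-1.67, -1.49 and -1.24). HXT8 and HXT5 stood at 2.75 and 1.92, on 285 and 533 reads with the drug and 20 and 68 without. In the phosphate list, PHM8 and SPL2 were at least 2-fold higher, at 1.73 and 2.43, and the other 9 of 11 measured genes were within 2-fold. Among 19 mating genes STE3, with 260 reads with the drug and 44 without, and MFA2, at 1.07, were at least 2-fold higher, and none was lower. Over all genes 10.6% were higher and 10.4% lower, so the higher mating genes were near the share of all genes. None of the 24 PAU genes reached 100 reads over both inputs.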
